A study of Mus musculus with 5 samples.

Results

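B cell and plasma cell identity genes were examined in RNA-seq counts of cells from mouse mammary tumours. The 9 genes, of 46983 in the count tables, are Ms4a1, Cd79a, Cd79b, Cd22, Pax5, Fcrla, Mzb1, Pou2af1 and Jchain. They were chosen by name with their levels in these same libraries already known, so their difference between the groups is given as a description without a test. C57/BL6 mice carried orthotopic tumours of EO771, a mouse mammary carcinoma line. In 2 libraries (Treg-ablated), regulatory T (Treg) cells had been removed by diphtheria toxin, given as 2 doses of 50 µg/kg, with the sort on day 4. No toxin dose, number of doses or day of sort is recorded for the control group (3 libraries). An effect of the toxin or of the day therefore cannot be told apart from that of Treg loss. The allele that made Treg cells sensitive to the toxin and the age of the mice are not given in the sources used here. Separate animals are not named in the labels for libraries within a group, so the p-values reflect library-to-library spread alone, and that spread may be technical.

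The sort described in the labels kept CD45+ CD11B+ Ly6G- F4/80+ cells, a macrophage gate that names no B cell marker. Totals ran from 13122668 to 20156835 counts. The markers go against a pure macrophage sample in all 5 libraries: 10 fibroblast markers summed to between 19200 and 23940 CPM (counts scaled to a common library size by the TMM method), against 119 to 217 CPM for 10 macrophage markers. The 9 B cell and plasma cell genes were small beside both, at 8.51 to 28.2 CPM in sum. In bulk RNA, fewer cells of a type and less RNA per cell cannot be told apart.

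As background, a B cell carries an antibody at its surface, bound to a pair of signalling chains, CD79A and CD79B, that pass on the signal when antigen binds. PAX5 sets and maintains the B cell programme. When a B cell becomes a plasma cell, PAX5 and most surface receptors are shut off, the immunoglobulin genes are transcribed at a very high rate, and chaperones and the joining chain help to fold, assemble and export the antibody.

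All 9 genes had higher CPM in both Treg-ablated libraries than in any control library, but the size of the difference was far from uniform. Mzb1, Cd79b and Cd22 were 4.89-fold, 5.85-fold and 10.8-fold higher, Pou2af1 was 3.56-fold higher and Ms4a1 had no count in controls. Jchain, Fcrla, Cd79a and Pax5 were between 1.65-fold and 2.06-fold higher. Summed over the 9 genes, Treg-ablated replicate 1 held 328 counts and replicate 2 held 374, while control replicates 1, 2 and 3 held 151, 170 and 157. After scaling, the sum was 2.48 times the control level (exact 95% interval 2.21 to 2.79). All such intervals cover counting error only, not the spread between tumours. Of all 14580 genes tested, 26.9% had both Treg-ablated libraries above all controls. As the genes were chosen with this contrast known, nothing is read from their own share. Of the 9, 8 passed the filter on low counts and Fcrla did not. In 5 of the 8 (Ms4a1, Cd79b, Cd22, Mzb1 and Pou2af1) it was the Treg-ablated libraries that carried the gene through the filter. In the fit across all genes 6 of the 8 were called higher at an adjusted p under 0.05 (edgeR), where 13.5% of all genes were called higher and 12.3% lower. This count, too, follows from how the genes were chosen and filtered, and nothing is read from it. The number called ran from 4 to 7 when 1 library was left out.

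**Figure D1:**
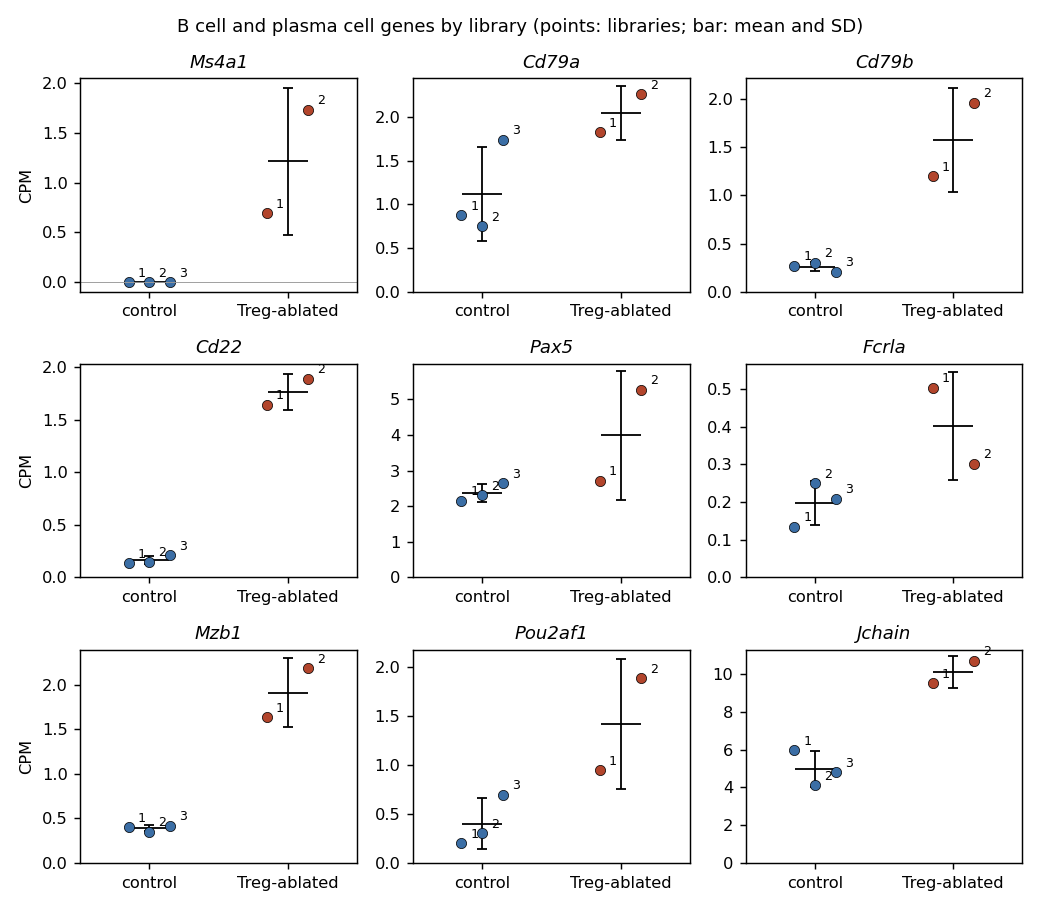
Level of each of the 9 genes in CPM (vertical axes, each gene on its own scale from 0) for control and Treg-ablated libraries; points are single libraries numbered by replicate, and bars give the mean and SD. For Cd79a and Pax5 the lowest Treg-ablated library (1.83 and 2.71 CPM) lies just above the highest control (1.74 and 2.65 CPM), whereas for Cd22 and Mzb1 the groups are far apart.

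Promoter sequences from RefSeq (GRCm38.p6) were used for 6 of the 9 genes: Cd79a, Cd22, Pax5, Fcrla, Pou2af1 and Jchain. No promoter of Ms4a1, Cd79b or Mzb1 was searched, so the motif counts say nothing about these genes. Each window ran from 250 bases before to 50 bases after the annotated start. Both strands were searched for 4 short motifs of B cell regulators. The E box CAGGTG, a site of E proteins such as E2A, was found in 4 of the 6 (Cd79a, Cd22, Fcrla and Jchain) and in 20.3% of 32544 promoter windows of the same length. The EBF core CCCNNGGG was found in 1 of the 6 (Cd22) and in 13.7% of all windows. Neither the octamer ATGCAAAT, the site of the POU factors that the Pou2af1 product joins, nor the PU.1 site GAGGAAGT was present in these 6 windows, and they occur in 1.75% and 3.11% of all. With the 150 bases nearest the start the E box was left in 2 genes. A match is a run of letters, not a bound site, and variant forms of each motif were not searched. The RefSeq window of Cd22 lies inside the span that the count annotation gives for the gene. The windows of Cd22, Cd79a and Jchain are shown because these genes had a large difference, a small one, and the highest level. Capitals mark the E box (CAGGTG or CACCTG on the other strand) and, in Cd22, also the EBF core CCCTGGGG. None of the matches overlap.
Cd22 (chr7:30878979-30879278, - strand): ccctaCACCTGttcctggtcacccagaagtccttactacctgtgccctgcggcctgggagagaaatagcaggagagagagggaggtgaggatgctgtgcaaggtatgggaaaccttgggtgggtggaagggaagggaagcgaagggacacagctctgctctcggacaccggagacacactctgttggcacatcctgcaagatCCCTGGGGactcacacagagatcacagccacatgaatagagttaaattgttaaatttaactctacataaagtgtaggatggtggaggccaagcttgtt
Cd79a (chr7:24897247-24897546, + strand): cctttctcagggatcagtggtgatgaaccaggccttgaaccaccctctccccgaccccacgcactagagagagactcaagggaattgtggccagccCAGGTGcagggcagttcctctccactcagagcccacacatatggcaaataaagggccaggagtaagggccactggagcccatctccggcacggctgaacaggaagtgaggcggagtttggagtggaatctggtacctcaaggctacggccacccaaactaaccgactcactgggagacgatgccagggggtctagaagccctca
Jchain (chr5:88527848-88528147, - strand): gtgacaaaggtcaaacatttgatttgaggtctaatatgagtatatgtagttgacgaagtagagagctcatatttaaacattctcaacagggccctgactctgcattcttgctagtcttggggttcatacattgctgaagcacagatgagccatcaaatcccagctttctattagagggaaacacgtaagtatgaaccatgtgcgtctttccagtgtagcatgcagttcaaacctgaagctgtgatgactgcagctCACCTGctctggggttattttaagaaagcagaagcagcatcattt

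The groups lay further apart for the gene of one antigen receptor chain than for that of the other. Cd79b (ENSMUSG00000040592, chromosome 11, 106311341 to 106314762 on GRCm38, minus strand), which encodes the CD79B signalling chain, had 19 and 26 counts after ablation, against 4, 6 and 3 in controls. Its mean level was 1.58 ± 0.540 CPM (SD, n = 2) against 0.259 ± 0.0464 CPM (n = 3), a ratio of summed counts of 5.85 (95% interval 3.10 to 11.8). The lowest Treg-ablated library was 3.99 times the highest control.

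Cd79a (ENSMUSG00000003379, chromosome 7, 24897381 to 24902197, plus strand), which encodes the partner chain, had 29 and 30 counts after ablation and 13, 15 and 25 in controls. Control replicate 3, at 1.74 CPM, lay close to Treg-ablated replicate 1, at 1.83 CPM, so the groups barely separated. The ratio was 1.88 (1.28 to 2.78). The fitted log2 fold change was 0.90 (SE 0.35) and 1.33 without control replicate 3. The next gene, Arhgef1, lies 715 bases away on the same strand and had 1697 to 2493 counts in every library.

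The genes for the surface proteins CD20 and CD22 showed the widest separation. Ms4a1 (ENSMUSG00000024673, chromosome 19, 11249675 to 11266241, minus strand), which encodes CD20, a membrane protein of B cells that plasma cells lack, had 11 and 23 counts after ablation and 0 in each of the 3 controls. Set against 3 counts, the limit that 0 counts allow for the controls as a group, it was at least 19.1-fold higher. This bound does not cover counting error in the 34 Treg-ablated counts. The Treg-ablated libraries themselves differed, at 0.694 and 1.74 CPM. Cd22 (ENSMUSG00000030577, chromosome 7, 30865402 to 30880342, minus strand) encodes an inhibitory receptor that binds sialic acid and dampens signals of the antigen receptor. It had 26 and 25 counts against 2, 3 and 3, and levels of 1.76 ± 0.174 CPM (n = 2) against 0.165 ± 0.0393 CPM (n = 3). The ratio was 10.8 (5.08 to 26.3), and the lowest Treg-ablated library stood 7.84 times above the highest control. Of its exon bases, 479 are shared with Gm29439, a gene on the opposite strand that had 0 counts in every library.

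The transcription factor genes had smaller differences than Ms4a1, Cd22 and Cd79b. Pou2af1 (ENSMUSG00000032053, chromosome 9, 51213690 to 51240079, plus strand) encodes OBF-1, a coactivator that acts with POU factors on immunoglobulin promoters. It had 15 and 25 counts after ablation and 3, 6 and 10 in controls, a ratio of 3.56 (2.01 to 6.50). Its fitted log2 fold change was 1.82 (SE 0.49), and 1.27 without Treg-ablated replicate 2. Pax5 (ENSMUSG00000014030, chromosome 4, 44524757 to 44710487, minus strand), the B cell master regulator gene, had 43 and 70 counts against 32, 46 and 38. Treg-ablated replicate 1, at 2.71 CPM, was near the highest control, at 2.65 CPM, and replicate 2 reached 5.28 CPM. The ratio was 1.65 (1.26 to 2.15), the smallest of the 9. The fitted log2 fold change of Pax5 was 0.73 (SE 0.28), with 0.20 when Treg-ablated replicate 2 was left out and 1.16 when replicate 1 was left out, so its size was set by 1 library.

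Pax5 was also well detected in controls. Its 116 control counts stand beside 0 for Ms4a1 and 8 for Cd22, genes found in the same mature B cells. Of its 8853 exon bases, 761 are shared with 2 genes on the opposite strand, which had 1 count between them over all libraries. Per kilobase of exon its control level was 0.267 CPM, above 0.181 for Cd79b and 0.0330 for Cd22 and below 0.770 for Cd79a. The source of the control counts was not tested.

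Fcrla (ENSMUSG00000038421, chromosome 1, 170917576 to 170927583, minus strand), which encodes an Fc receptor-like protein kept inside B cells, was too low to resolve. It had 8 and 4 counts against 2, 5 and 3, a ratio of 2.03 whose interval, 0.803 to 5.24, includes 1. At this depth no difference could be detected. It was the single gene of the 9 with the higher level in Treg-ablated replicate 1.

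The antibody assembly genes were Jchain and Mzb1. Jchain (ENSMUSG00000067149, chromosome 5, 88519809 to 88527891, minus strand) encodes the joining chain that links IgM and IgA into polymers. It had 151 and 142 counts after ablation and 89, 82 and 69 in controls, or 10.1 ± 0.843 CPM (n = 2) against 4.96 ± 0.946 CPM (n = 3). The ratio was 2.06 (1.73 to 2.46), with a fitted log2 fold change of 1.04 (SE 0.16) that stayed between 0.90 and 1.19 under the alternatives run. Jchain lay at 4.02 CPM per kilobase after ablation and 1.97 in controls, the highest of the 9 in both groups.

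Mzb1 (ENSMUSG00000024353, chromosome 18, 35647266 to 35649367, minus strand), an endoplasmic reticulum chaperone of marginal zone B cells and plasma cells, had a wider gap between the groups than Jchain. It had 26 and 29 counts against 6, 7 and 6, a ratio of 4.89 (2.86 to 8.73). The interval does not overlap that of Jchain, although both genes are active in antibody-secreting cells. This compares values that chose the genes and is not a test of the difference. The lowest Treg-ablated level of Mzb1, 1.64 CPM, was 3.92 times the highest control level.

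**Figure D2:**
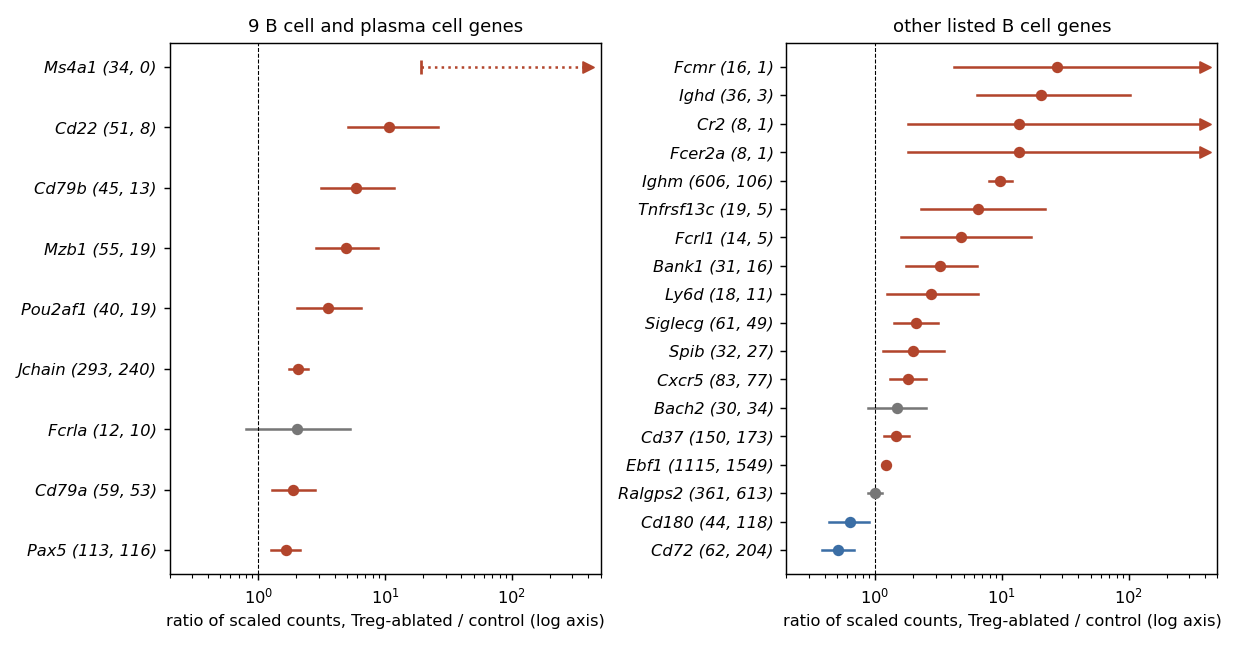
Ratio of scaled counts, Treg-ablated to control (log axis), for the 9 genes (left) and a selection of other listed B cell genes with at least 8 counts (right), with exact 95% intervals (except Ms4a1) and, in parentheses, summed Treg-ablated and control counts. Points to the right of the dashed line are higher after ablation; Ms4a1, with 0 control counts, is drawn from its ratio to 3 control counts, 19.1, arrows mark intervals that run off the axis, and Cd72 and Cd180 lie to the left.

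The make-up of these transcripts differed between the groups for some genes. Jchain and Pax5 together made up most of the counts of the 9 genes in every library of both groups. The share of Jchain was 58.9%, 48.2% and 44.0% in control replicates 1, 2 and 3 and 46.0% and 38.0% in Treg-ablated replicates 1 and 2, so that the groups overlapped. The share of Cd22, in contrast, was 1.33%, 1.77% and 1.91% in controls and 7.93% and 6.68% after ablation (exact Clopper-Pearson 95% intervals are as wide as 5.24% to 11.4% in Treg-ablated replicate 1). Pax5 took 21.2% to 27.1% of the counts in controls and 13.1% and 18.7% after ablation, although its CPM was higher after ablation.

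**Figure D3:**
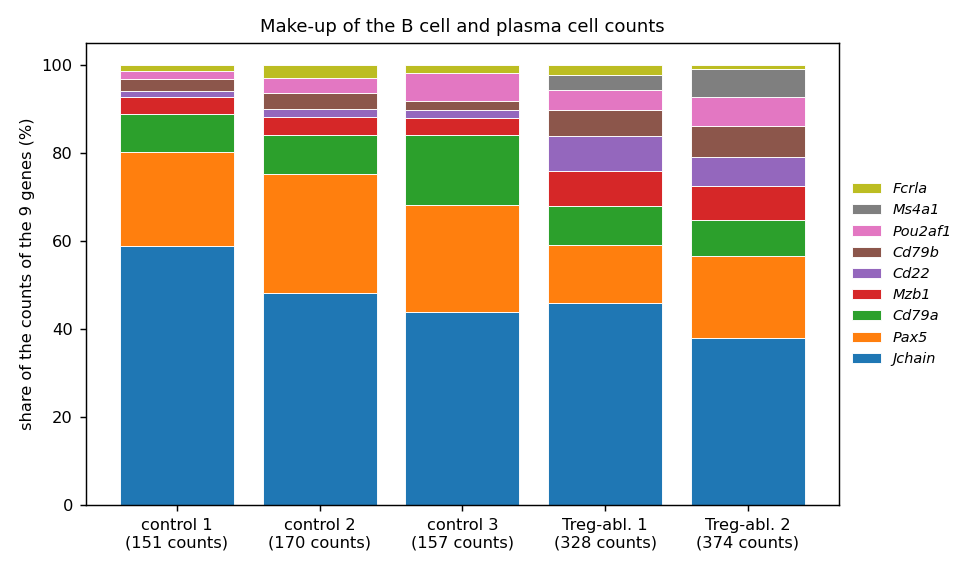
Share of each gene in the summed counts of the 9 genes (vertical axis, percent) for each library, with that sum in parentheses. Cd22, Cd79b, Mzb1 and Ms4a1 take wider bands in the 2 Treg-ablated libraries, while Jchain and Pax5 remain the 2 widest bands throughout.

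Libraries of the same group were not alike. The 9 genes summed to 10.1, 8.51 and 10.9 CPM in controls, and to 20.7 and 28.2 CPM in Treg-ablated replicates 1 and 2. Relative to Treg-ablated replicate 1, replicate 2 had higher CPM for 8 of the 9 genes, with a ratio of 1.36 (1.17 to 1.59) for their sum. For 6 of the 9 the interval of the gene's own ratio included 1. How many of all genes were higher in replicate 2 was not counted, so nothing is read from that number. For the 8 genes without Jchain the ratio was 1.57 (1.28 to 1.92), and for Jchain alone 1.13 (0.888 to 1.42). The ratios of Ms4a1 (2.50, interval 1.17 to 5.68), Pax5 (1.95, 1.31 to 2.92) and Pou2af1 (1.99, 1.01 to 4.07) had intervals above 1. The 17 T cell markers summed to 68.4 and 77.6 CPM in the 2 Treg-ablated libraries, a ratio of 1.14 (1.04 to 1.24).

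Other B cell genes were taken from a list that leaves out the 9. Of 22 listed genes 13 were tested, 7 rose, 1 fell and 5 did not pass, with a median log2 fold change of 0.86 against −0.01 over all genes tested, of which 13.5% rose and 12.3% fell. The list was drawn up with earlier results of these data known. Ighm and Ighd, the constant regions of the IgM and IgD carried by naive B cells, had 256 and 350 against 29, 51 and 26 counts, and 12 and 24 against 0, 2 and 1 counts. The log2 fold change of Ighm was 3.29 (SE 0.23, adjusted p = 2.58e-05, edgeR) and that of Ighd 4.19 (SE 0.71). The kappa light chain gene Igkc had 32.5 and 32.4 CPM against 9.87 to 12.6 CPM. Reads of immunoglobulin genes can be shared between close copies, so these values are uncertain. Bank1, a B cell scaffold gene, had a log2 fold change of 1.68 (SE 0.39). Ighd and Bank1 are among 4 of the 13 tested genes that passed the filter on low counts only through the Treg-ablated libraries, where they are higher, and the count and median of the list are no support for a difference. The call of Bank1 ended without either Treg-ablated library or control replicate 2.

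Not all listed genes belong to B cells alone. Ebf1, a B lineage factor that stromal and fat cells also make, rose from 31 to 32.1 CPM in controls to 38.4 and 38.2 CPM, a log2 fold change of 0.28 (adjusted p = 0.0195, edgeR), and this call ended, among other settings, under DESeq2, with an offset on GC content, and without either Treg-ablated library or control replicate 2. The gene that fell was Cd72, an inhibitory receptor also found on macrophages, from 3.61 to 4.70 CPM in controls to 1.89 and 2.41 CPM (by a log2 value of −0.96, at an adjusted p of 0.0103). It did not pass without Treg-ablated replicate 1. Cd180, which macrophages and dendritic cells share with B cells, had a log2 fold change of −0.66 and did not pass (adjusted p = 0.0839). Ebf1, Cd72 and Cd180 are named after their values were seen. In the same libraries 7 of 10 macrophage markers fell, beside 12.3% of all genes. The part of these markers in the values above was not tested.

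The 9 listed B cell genes below the filter had few counts. Fcmr, the receptor for IgM, had 6 and 10 counts against 0, 0 and 1. Tnfrsf13c, which encodes the receptor for the survival factor BAFF, had 11 and 8 against 3, 2 and 0. Fcer2a and Cr2, receptors of mature follicular B cells, each had 4 and 4 counts after ablation and 1 over all controls. Ly6d had 10 and 8 against 4, 5 and 2, and Fcrl1 had 9 and 5 against 1, 2 and 2. For Blk the counts were 2 and 3 against 0, 0 and 1. Vpreb3 had 1 and 0 against 0, 0 and 1, and Fcrl5 had 0 and 5 against 0 in each control. These are counts of single fragments, given as values. Over the whole list, 4 genes were called without Treg-ablated replicate 1 or control replicate 2, in place of 8.

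Genes that carry the antigen receptor signal onward more often fell than rose among those that passed. Of 21 tested, 2 rose, 6 fell and 13 did not pass, and the median log2 fold change was −0.13. Over all genes 13.5% rose and 12.3% fell, so the share that rose was near the background. Most of them also serve macrophages and other white blood cells. Pik3ap1, an adaptor for PI3 kinase, fell from 4.96 to 6.18 CPM in controls to 2.52 and 3.32 CPM. Its log2 fold change came to −0.91 (SE 0.19) with an adjusted p of 0.00787 in edgeR. Plcg2, the phospholipase of the pathway, and Vav1, an exchange factor, fell by 0.60 and 0.53 on the log2 scale (adjusted p = 0.0228 and 0.0200). Malt1, a protease of the NF-κB branch, rose by 0.38 (adjusted p = 0.0365). All 3 calls of Plcg2, Vav1 and Malt1 ended without Treg-ablated replicate 2. That of Plcg2 also ended without control replicate 1 or 2 and with the GC offset. That of Vav1 ended without control replicate 1 or 3, and that of Malt1 without control replicate 2 or 3, under DESeq2 and with the GC offset. The list gave 2 calls without Treg-ablated replicate 2, and 4, 3 and 5 without control replicates 1, 2 and 3.

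**Figure D4:**
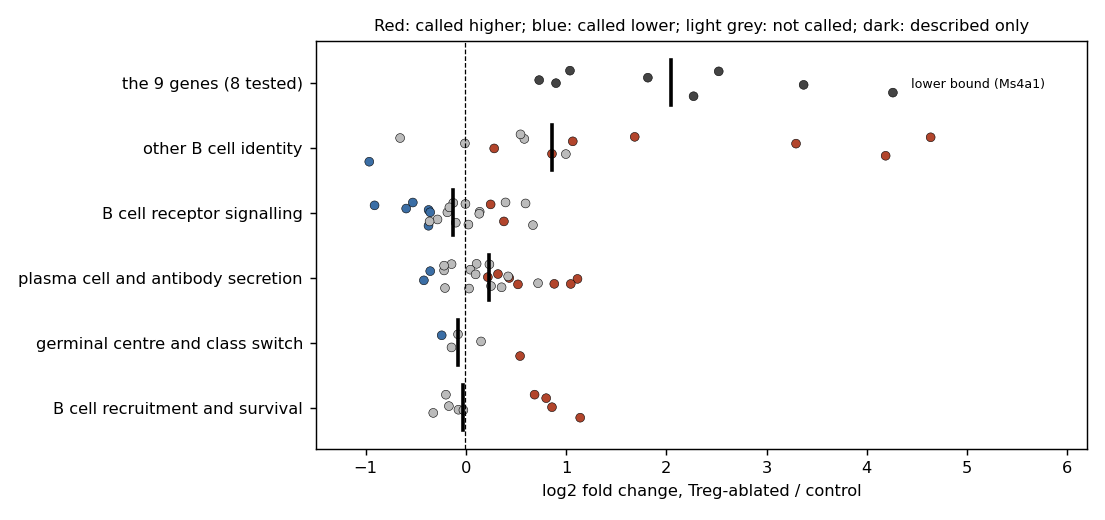
Log2 fold change (horizontal axis, Treg-ablated to control) of tested genes in the 9-gene group and in 5 related lists; each point is a gene, thick bars are medians, the dashed line is the median of all genes tested, red and blue mark genes called higher and lower, and dark points are described without a test. The receptor signalling list centres on −0.13 while the other B cell genes centre on 0.86, and Ms4a1 is drawn at its lower bound.

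Plasma cell and secretion genes gave a mixed picture. Of 24 listed, 22 were tested, 7 rose, 2 fell and 13 did not pass (median log2 fold change 0.23). Beside the 13.5% and 12.3% of all genes, the share that fell was near the background. Irf4, a factor needed to form plasma cells and also present in activated T cells, had 1.95 and 2.87 CPM against 1.05 to 1.14 CPM, and a log2 difference of 1.11 (SE 0.27) with an adjusted p of 0.0143 in edgeR. Tent5c, which encodes a poly(A) polymerase that stabilises immunoglobulin mRNA, rose by 1.05 (adjusted p = 0.00867). Slamf7, a receptor of plasma cells, NK cells and other lymphocytes, rose by 0.88 (adjusted p = 0.0132), and Sec11c, of the signal peptidase, by 0.52 (adjusted p = 0.00325). The calls of Irf4 and Slamf7 ended without Treg-ablated replicate 2, and that of Irf4 also without control replicate 2. Prdm1, which encodes BLIMP-1, the factor that closes the B cell programme, had a log2 fold change of 0.72 and did not pass (SE 0.25, adjusted p = 0.0545), but passed when scaled by library size alone and with both other filters on low counts. Xbp1, the regulator of the secretory machinery in plasma cells, was at −0.21 and did not pass (adjusted p = 0.0749), but passed, as lower, with a minimum of 1 count and without Treg-ablated replicate 1.

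Sdc1, which encodes CD138 and marks plasma cells but also epithelial and tumour cells, fell by 0.42 (SE 0.070, adjusted p = 0.00261, edgeR) from a level of 326 to 353 CPM in controls. That level is far above any of the 9 genes. Tnfrsf17, which encodes the plasma cell receptor BCMA, had 1 count in all, in Treg-ablated replicate 1. The list gave 5 calls without Treg-ablated replicate 2 or control replicate 2, in place of 9.

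Germinal centre genes ranged from 0 counts to well detected. Mef2b, which encodes a transcription factor, had 0 counts in every library. Of 5 genes tested, Bcl6 rose and S1pr2 fell, beside 13.5% and 12.3% of all genes. Bcl6, a repressor needed for germinal centres that is also made by many other cells, rose by 0.54 on the log2 scale (SE 0.10) with an adjusted p of 0.00483 in edgeR. S1pr2, a sphingosine phosphate receptor, fell by 0.24 (adjusted p = 0.0282). It did not pass in any fit that left out a single library other than control replicate 1, nor with the GC offset.

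Signals that draw and sustain B cells were little detected where they are most specific. Cxcl13, the chemokine that forms B cell follicles, had 1 count in all, and Ccl19 and Ccl21a, which guide lymphocytes into lymphoid tissue, had 1 count each, in controls. Of 19 listed genes 9 were tested and 4 rose, beside 13.5% of all genes. Cxcr5 is counted in the list of other B cell genes too. Ltb, the lymphotoxin gene of lymphocytes, had 3.34 and 3.77 CPM against 1.21 to 1.88 CPM and a log2 difference of 1.14 (SE 0.23), with an adjusted p of 0.00644 in edgeR. Cxcr5, the CXCL13 receptor found on B cells and follicular helper T cells, rose by 0.86 (adjusted p = 0.0272). Il6, a cytokine that supports plasma cells, and Ccr7, the receptor for CCL19, rose by 0.80 and 0.69 (adjusted p = 0.00809 and 0.00578). The call of Cxcr5 was lost under DESeq2 and without control replicate 1, control replicate 2 or the first Treg-ablated library. Il6 also lost its call without control replicate 2, where 2 genes of the list were called.

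Lists of markers of other cells did not all move in the same direction. Over all genes tested, 13.5% rose and 12.3% fell. Of 17 T cell markers, 3 of which passed the filter only through the Treg-ablated libraries, 16 rose. The 17 summed to 20.3 to 25.1 CPM in controls and to 68.4 and 77.6 CPM after ablation. The ratio was 3.11 (2.89 to 3.34), against 2.48 for the 9 genes and 2.90 (2.47 to 3.42) for the 8 without Jchain. Of 8 NK cell markers, 1 of which passed the filter only through the Treg-ablated libraries, 6 rose. The other markers, Ncr1 and Klrb1c, did not pass. Their log2 fold changes were 0.27 and 0.48 (adjusted p = 0.555 and 0.325, edgeR). Mzb1 and Jchain are also made by plasmacytoid dendritic cells, whose marker list was at 677 and 645 CPM against 546 to 566 CPM, mostly from the widely expressed Tcf4, Bst2 and Runx2. Of 5 markers of this list tested, 1 of which passed the filter only through the Treg-ablated libraries, 2 rose (Tcf4 and Runx2) and 0 fell. Siglech, the defining marker of these cells, had 7 and 2 counts after ablation and 9, 3 and 2 in controls. Lymph node stroma was near absent: of 6 markers, Glycam1 and Chst4 were at 0 in every library and the sum did not exceed 0.151 CPM. Of 7 dendritic cell markers tested 1 rose and 1 fell, and of 10 fibroblast markers 1 rose and 5 fell. The dendritic cell counts, and the number of fibroblast markers that rose, were near the shares over all genes. Epithelial and tumour markers summed to 302 and 259 CPM after ablation and 293 to 318 CPM in controls, with Esrp1 at 0 throughout. Whether the changes in the T and NK cell lists have a part in the levels of the 9 genes was not tested.

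**Figure D5:**
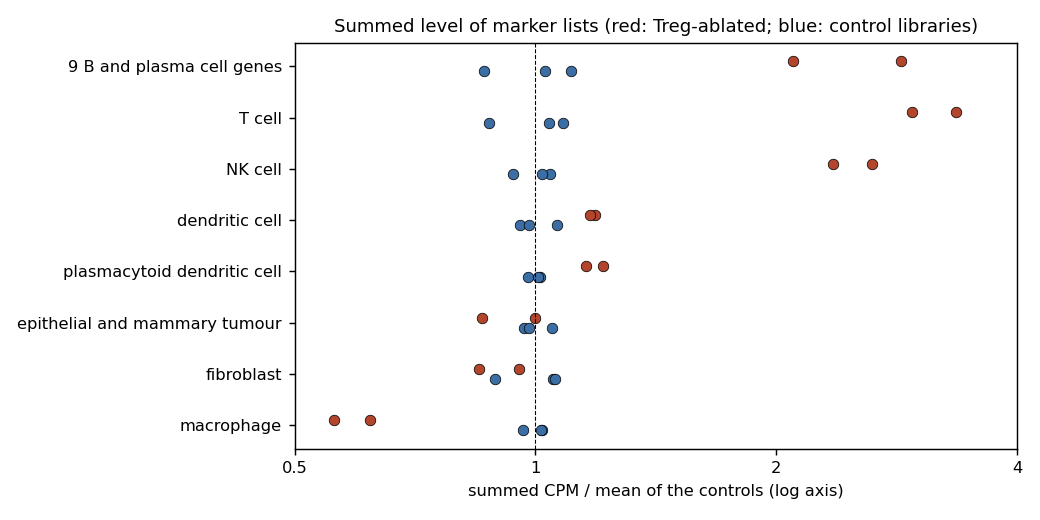
Summed CPM of the 9 genes and of 7 cell type marker lists, divided by the mean of the 3 controls (log axis); red points are Treg-ablated and blue points control libraries. The 9 genes and the T and NK cell lists lie well above 1 in both Treg-ablated libraries and the macrophage list lies below 1. The dendritic and plasmacytoid dendritic cell lists lie slightly above 1 in both Treg-ablated libraries.

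The genes with the most similar profile were found by the root mean square difference, over 5 libraries, between log2(CPM + 0.5) of a gene and the mean of the 9 genes, each relative to its own control mean. Immunoglobulin and T cell receptor genes, predicted genes and genes with fewer than 20 counts were left out before ranking, so none of these could appear. Of 13289 genes ranked, the 8 nearest were Fasl, Slain1, Serpinb6b, Gbp11, Cd96, Cd2, Tgtp2 and Iigp1, with differences of 0.0415 to 0.1256. Fasl, the death ligand of cytotoxic lymphocytes, had 15 and 18 counts against 4, 5 and 5. Cd2 and Cd96 are receptors of T and NK cells, and Gbp11, Tgtp2 and Iigp1 belong to GTPase families induced by interferon. Genes that differ between the groups by a like amount rank first on this measure, and with a pseudocount of 0.25 or 1 only 3 or 2 of these 8 genes were among the nearest.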

How the data were processed

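RNA-seq gene counts of 5 libraries, 2 Treg-ablated and 3 control, were grouped by sample title; the file names of the Treg-ablated libraries carry other replicate numbers, and those of the titles were used. The deposited values are counts of fragments over exons, summed by gene. The authors ran featureCounts 1.6.2 with an Ensembl 83 annotation of GRCm38 that had been filtered, per the file headers. The counts are whole numbers and not normalized. The recorded command sets neither a strand option nor one for overlapping genes or reads with several matches, so antisense neighbours and close paralogs have uncertain values. The submitters' processing notes also name Subread 1.6.2, Trimmomatic 0.33, FastQC 0.11.5 and DESeq2 1.16.1.

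Symbols were joined by Ensembl identifier (46488 of 46983 genes). Genes were filtered with filterByExpr, which asks for about 10 counts (0.6714 CPM) in at least 2 libraries, normalised by TMM and fitted in edgeR 4.0.16 (R 4.3.3) with its quasi-likelihood test, with Benjamini-Hochberg adjustment over 14580 genes. Each SE was obtained by dividing the log2 value by √F. Ratios of summed counts have exact conditional 95% intervals, which cover counting error only.

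The genes and lists were chosen with earlier results of these data known. Of each list, up to 4 called genes with the largest change are named, with a fixed set of others. Ebf1, Cd72, Cd180, Mef2b, Tnfrsf17, Ccl19, Ccl21a, Ncr1, Klrb1c and the B cell genes below the filter were named after their values were seen. Some listed genes are counted but not reported here by name. Alternatives were other scalings and filters, DESeq2 1.42.0, limma-voom (limma 3.58.1), the replicate number as a block, a GC offset, other prior counts and pseudocounts, a shorter promoter window and leaving out each library.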

Additional observations from a re-analysis of the deposited data

How the results depend on the processing

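The 8 tested genes of the 9 had positive log2 fold changes in every alternative in which they could be fitted. Without Treg-ablated replicate 2 this was 7 genes. They were chosen with this contrast known, and each had both Treg-ablated libraries above all controls. The sign in these refits is therefore no support for a difference. DESeq2 gave an adjusted p for 4 of them and called Mzb1 and Jchain. With a minimum of 1 count, Cd79a and Pax5 also passed, as they did with the replicate number as a block. The number called was 2 of 4 with the filter on a mean of 1 CPM and ran from 4 to 7 when single libraries were left out. The fitted value for Ms4a1 depends on the prior count. Among all genes 3758 were called, and the range without 1 library each was 1366 to 3224, the lowest without control replicate 2. For the lists these ranges were 4 to 9 of the other B cell genes (8 in all libraries), 2 to 7 of receptor signalling (8), 5 to 10 of plasma cell genes (9), 1 to 2 of germinal centre genes (2) and 2 to 4 of recruitment genes (4). Other B cell genes called numbered 5 with the filter on a mean of 1 CPM and 2 under DESeq2, which gave an adjusted p for 8 of them. Receptor signalling genes numbered 5 under DESeq2. With the GC offset 1 germinal centre gene was called. The E box was found in 2 genes in place of 4 with the shorter window, and 3 or 2 of the 8 most similar genes were shared at a pseudocount of 0.25 or 1.

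With the replicate number as a block, 2412 genes were called, 4 of receptor signalling and 1 of the germinal centre list, and the calls of Ebf1, Vav1, Malt1 and S1pr2 ended. Libraries with the same number had correlations of deviations from the group mean of −0.339 and −0.00479. The deviations of the Treg-ablated libraries mirror each other by construction, so each correlation recurs with the opposite sign for the other Treg-ablated library. These values therefore cannot decide whether the numbers pair the libraries. Except where a shorter window or fewer libraries explain a change by construction, the cause was not tested. Depth limits the genes with few counts, as for Fcrla.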
